A study of Mus musculus with 16 samples.

Results

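The genes described here are 33 that encode the enzymes of cholesterol and fatty acid synthesis and the proteins that sense sterols and switch those enzymes on. They were chosen by name, as genes of these pathways, with earlier results of these data known, and they are 33 of the 48397 gene symbols counted. They were grouped by role into 5 genes of sterol sensing, 8 of the mevalonate pathway, 11 of the steps from squalene to cholesterol, 4 of fatty acid synthesis and 5 of elongation and desaturation. RNA was sequenced from primary hippocampal neurons of newborn CD1 mice. All cultures were exposed to AraC, an inhibitor of dividing cells, at 3 days in vitro (DIV), received medium conditioned by immortalized astrocytes at 10 and 13 DIV, and were harvested at 17 DIV. Control neurons received medium of Apoe-/- astrocytes, and the other groups received medium of astrocytes homozygous for human APOE ε2, ε3 or ε4, which carries apoE2, apoE3 or apoE4 lipoproteins. Each of the 4 groups has 4 libraries, described in the study's methods as independent neuronal cultures and numbered 1 to 4 in the labels. All media, control medium included, were made in the presence of an oxysterol (25-hydroxycholesterol) and concentrated 10-fold. Each astrocyte genotype was supplied by an immortalized line, so the apoE isoform and other properties of its line cannot be told apart.

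Cholesterol is built from acetyl-CoA through mevalonate, farnesyl pyrophosphate, squalene and lanosterol, and fatty acids from acetyl-CoA through malonyl-CoA. When sterols in the endoplasmic reticulum are low, Scap carries the SREBP2 precursor, the product of Srebf2, to the Golgi, where it is cut and released to activate sterol genes. Insig proteins and oxysterols keep Scap in the endoplasmic reticulum. In the mature brain astrocytes make much of the cholesterol and pass it to neurons on apoE lipoproteins, while cultured neurons also carry out synthesis of their own.

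The libraries held 14087723 to 34248172 counts assigned to genes. A further 38.4% to 73.7% of the counted reads of a library fell on no single gene, and the mitochondrial leucyl-tRNA synthetase gene Lars2 took 0.359% to 15.02% of the gene counts. The neuronal label was checked on 10 neuronal markers, all of which were counted in all 16 libraries, with a summed level of 3669 to 8558 CPM (a gene's count scaled to a common library total, with TMM factors for library composition). Astrocyte markers were present too, with all 10 counted in all libraries and a summed level of 1418 to 7350 CPM. In such bulk samples fewer cells of a type and less RNA per cell cannot be told apart.

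Promoter windows from 250 bases before to 50 after the annotated start were available for 26 of the 33 genes from RefSeq on build GRCm38.p6. Stretches of 60 bases that hold a core of the sterol regulatory element are shown for the 7 genes in which it lies before the annotated start and outside the gene's own GENCODE bounds, with the core TCACNNCA in capitals, because SREBP2 is known to bind such elements. The stretches lie at chr13:119690188-119690247 on the plus strand for Hmgcs1, at chr15:82147081-82147140 on the plus strand for Srebf2, at chr1:121332717-121332776 on the minus strand for Insig2, at chr3:89454384-89454443 on the plus strand for Pmvk, at chr5:4104752-4104811 on the minus strand for Cyp51, at chr1:169969289-169969348 on the minus strand for Hsd17b7 and at chr9:42264319-42264378 on the minus strand for Sc5d.
Hmgcs1: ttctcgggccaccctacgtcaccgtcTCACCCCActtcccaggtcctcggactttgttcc
Srebf2: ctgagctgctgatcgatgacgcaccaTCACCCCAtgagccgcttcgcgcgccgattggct
Insig2: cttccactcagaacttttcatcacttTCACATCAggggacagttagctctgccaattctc
Pmvk: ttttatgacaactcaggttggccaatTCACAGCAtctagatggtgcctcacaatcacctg
Cyp51: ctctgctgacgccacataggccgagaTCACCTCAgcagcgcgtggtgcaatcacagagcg
Hsd17b7: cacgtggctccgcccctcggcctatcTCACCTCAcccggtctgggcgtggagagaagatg
Sc5d: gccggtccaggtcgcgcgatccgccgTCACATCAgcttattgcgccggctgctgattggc
All motifs were searched on both strands of the window. A gene was counted if any of its windows held the motif. The core TCACNNCA was found in 10 of the 26 genes (38.5%) against 15.6% of the other genes with a window, whether expressed here or not. The longer form TCACNCCAC, which contains a match to the core, was found in 1 of 26 (3.85%) against 1.43%, and the shorter core was searched after that was seen. The CCAAT box, known to bind NF-Y, was found in 21 of 26 (80.8%) against 41.0%, and the GC box GGGCGG, known to bind Sp1, in 21 of 26 (80.8%) against 38.2%. The E-box CACGTG was found in 5 of 26 (19.2%) against 8.08%. These matches describe the letters of the window and were not tested for binding. The range between the means of the replicate numbers, described next, was 0.10 (Insig2) to 3.17 (Hmgcs1) log2 units in the 10 genes with the core, with a median of 1.48, and 0.08 (Ggps1) to 2.96 (Idi1) in the 16 without it, with a median of 1.09. Genes without a window, among them Fdft1, Fdps and Stard4, are in neither set. The ranges overlap and were not tested.

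All 33 genes passed the filter on low counts. Per kilobase of exon, the highest mean level over the 16 libraries was that of Scd2, a fatty acid desaturase (208 CPM per kilobase), followed by Hmgcs1, which makes HMG-CoA (138). Fads2 (53.5), Acly (49.6) and Fads1 (40.5) came next. Fdps, the synthase of farnesyl pyrophosphate, had the lowest level (1.17 CPM per kilobase) and Idi1 the next lowest (2.53). Over 50-base words of their exons, 26.2% of the words of Fdps and 25.3% of those of Idi1 also occur in other genes, as do 39.1% for Acat2, 30.4% for Acaca and 26.5% for Fdft1, so reads could be split or lost there.

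The strongest pattern in these genes followed the replicate number and not the added lipoprotein. In 23 of the 33 genes the mean of the 4 libraries numbered 2 was the highest and the mean of those numbered 1 the lowest. Hmgcs1 had 206, 1427, 1009 and 207 CPM in control libraries 1 to 4, 149, 1332, 709 and 236 CPM with apoE2, 132, 1332, 935 and 433 CPM with apoE3, and 114, 1219, 437 and 282 CPM with apoE4. In all groups the library numbered 2 stood highest and that numbered 3 second, and all 4 groups overlapped. Between the means of the replicate numbers Hmgcs1 ranged over 3.17 log2 units, against 0.52 between the group means. Fdft1, the squalene synthase, ranged over 3.66 log2 units between numbers and Fdps over 3.47. The median over the 33 genes was 1.44 log2 units between numbers and 0.42 between groups, against 0.61 and 0.32 over all 17038 genes tested. Replicate number took a median of 85.2% of the variance of log2 CPM in these genes, against 56.1% over all genes, and group took 6.42% against 14.4%.

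**Figure D1:**
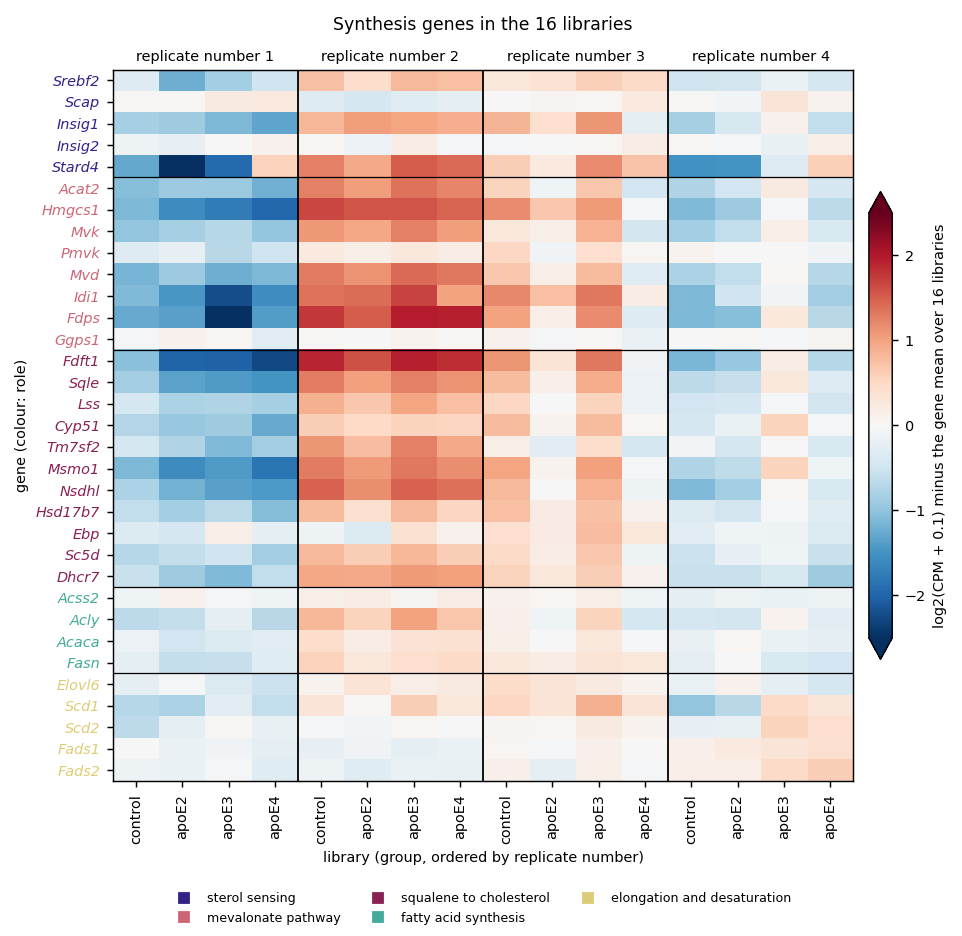
Each row is a gene, coloured by role, and each column a library, ordered by replicate number and then by group. The colour gives log2(CPM + 0.1) minus the gene's mean over the 16 libraries, and most sterol genes are red under number 2 and blue under number 1. Scap, Insig2, Pmvk and Ebp do not show that order, Ggps1 stays pale, and Stard4 is red in apoE4 library 1 (45.5 CPM).

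In edgeR's quasi-likelihood test of the replicate number, 31 of the 33 genes passed an adjusted p of 0.05, as did 63.8% of all genes tested. Means at least 4-fold apart between numbers were found in 10 of 33 genes, against 9.85% of all genes. Of these 10, 5 belong to the mevalonate pathway, 4 to the steps from squalene to cholesterol and 1, Stard4, to sterol sensing. The genes of fatty acid synthesis and of elongation and desaturation had none. The exceptions were Ggps1, which makes geranylgeranyl pyrophosphate for protein prenylation (range 0.08 log2 units, edgeR adjusted p = 0.834), and Insig2 (range 0.10, edgeR adjusted p = 0.697). This test of the number was added after the pattern had been seen.

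Other measures moved with the replicate number. The summed neuronal markers were 7370 to 7893 CPM in the libraries numbered 2 and 7987 to 8558 in those numbered 3, against 5021 to 5840 in number 1 and 3669 to 5448 in number 4. In numbers 1 to 4, astrocyte markers summed to 2441 to 5026, 1418 to 1856, 2750 to 3931 and 3263 to 7350 CPM. Oligodendrocyte lineage markers summed to 471 to 945, 125 to 162, 210 to 300 and 387 to 931 CPM, and mural and fibroblast markers to 124 to 222, 28.4 to 32.8, 28.9 to 49.6 and 137 to 380 CPM. Gene counts were 14087723 to 20438089 in number 1 and 24005575 to 32455651 in number 2, and the share of reads on no single gene was 61.8% to 73.7% in number 1 and 38.6% to 56.0% in number 2. On that measure number 3 held 51.4% to 65.0% and number 4 held 38.4% to 67.1%. The part of these measures in the pattern was not tested.

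**Figure D2:**
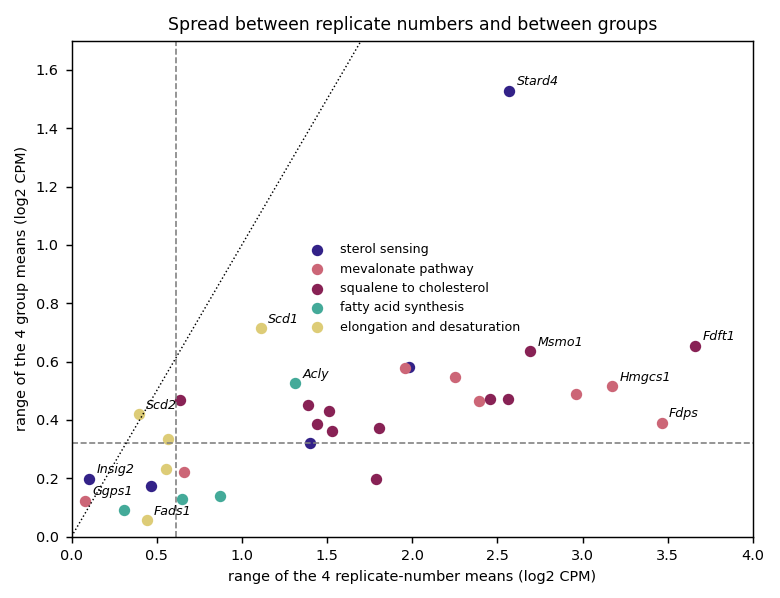
Each point is a gene, coloured by role, with the range of its 4 replicate-number means on the horizontal axis and the range of its 4 group means on the vertical axis, both in log2 CPM. Dashed lines mark the medians over all genes tested (0.61 and 0.32) and the dotted line marks equal ranges; nearly all sterol genes lie far to the right of it, and Stard4 has the largest range between groups (1.53).

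The comparison the study was built for sets each apoE isoform against control. In edgeR's test without a replicate term, none of the 33 genes passed an adjusted p of 0.05 in any of the 6 comparisons between groups. Over all genes the shares that passed were 0% for apoE2, 0.00587% for apoE3 and 0.194% for apoE4 against control, 0.147% for apoE4 against apoE3, 0.252% for apoE4 against apoE2 and 0% for apoE3 against apoE2. The smallest adjusted p of a member was 0.767, for Scd2 with apoE3. At an unadjusted p under 0.05 the members numbered 0 for apoE2 (2.79% of all genes), 1 for apoE3 (6.43%) and 0 for apoE4 (3.3%) against control, and 0 (4.7%), 1 (5.34%) and 1 (2.28%) for apoE4 against apoE3, apoE4 against apoE2 and apoE3 against apoE2. DESeq2 with the same design also called 0 members in all 6 comparisons.

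Libraries of the same number deviated together, so the fit was repeated with the replicate number as a block. With the block, 4 members rose with apoE3 against control, where 11.7% of all genes passed, 7.95% upward and 3.73% downward. They were Acly, Scd1, Scd2 and Ebp. With apoE2 and with apoE4 against control 0 members passed in edgeR, where 1.73% (1.17% upward and 0.552% downward) and 3.3% (3.18% upward and 0.129% downward) of all genes did, and DESeq2 with the block called 1 in each. For apoE4 against apoE3, Acly and Sc5d passed and were lower (1.76% of all genes, 0.693% downward). For apoE4 against apoE2, Stard4 was higher and Elovl6 lower (4.44% of all genes, 2.61% upward and 1.84% downward), and for apoE3 against apoE2 only Acly passed and was higher (1.31% of all genes). At an unadjusted p under 0.05 with the block, 0 members were higher (8.22% of all genes) and 3 lower (5.12%) with apoE2 against control, 5 were higher (16.4%) and 0 lower (11%) with apoE3, and 2 were higher (11.4%) and 6 lower (5.21%) with apoE4. No call with the block held when each replicate number in turn was left out.

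The direction of the fold changes was uneven between comparisons. Without the block, 4 of 33 members had a fold change above 0 and 29 below with apoE2 against control (median log2 fold change -0.14, 47.7% of all genes below 0), 28 were above and 5 below with apoE3 (median 0.14, 47.6%), and 9 were above and 24 below with apoE4 (median -0.16, 49.6%). Over all genes these medians were 0.01, 0.02 and 0.00. For apoE4 against apoE3, 29 members were below 0 (median -0.37), against 53.2% of all genes, and for apoE3 against apoE2, 31 were above 0 (median 0.35) where 46.7% of all genes were below. For apoE4 against apoE2, 21 were above and 12 below (median 0.03, 48% of all genes below 0). The medians against control without the block changed sign with the libraries numbered 2, whose loss leaves the numbers unbalanced between groups: without the control library 2 the medians for apoE2, apoE3 and apoE4 were 0.10, 0.46 and 0.10, and without that library of the isoform -0.47, -0.15 and -0.54. With the block and any replicate number left out of all groups, the medians against control were -0.22 to -0.08 with apoE2, 0.0021 to 0.26 with apoE3 and -0.30 to -0.04 with apoE4. Without apoE4 library 2 and without the block the median of apoE4 against apoE2 was -0.38. The comparisons share groups, so they are not separate evidence.

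Within most pairs the greater number of members lay on one side of control, but the side differed between replicate numbers. With apoE2 the median log2 ratio to the control library of the same number was -0.08, -0.19, -0.35 and 0.12 in numbers 1 to 4. With apoE3 it was -0.16, 0.07, 0.11 and 0.43, and with apoE4 -0.17, -0.04, -0.57 and 0.17. In number 4 the median was above 0 for all 3 isoforms and in number 1 below 0 for all 3. In apoE4 against apoE3, 16 of the 33 members were lower in all 4 pairs, against 12% of all genes, and in apoE3 against apoE2, 12 were higher in all 4 pairs, against 12%. Against control, 3 were lower in all 4 pairs with apoE2 (9.74% of all genes), 8 were higher with apoE3 (18.6%), and 3 were higher (14.9%) and 5 lower (11.3%) with apoE4. With the block, 16 members were lower at an unadjusted p under 0.05 in apoE4 against apoE3 (7.81% of all genes) and 0 higher (8.45%), and 20 were higher in apoE3 against apoE2 (8.78%) and 1 lower (7.14%). In apoE4 against apoE2, 4 were higher (9.56%) and 2 lower (8.43%).

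Markers of other cell types moved with the isoforms too. With the block, 9 of 10 astrocyte markers were higher with apoE3 than in control neurons (7.95% of all genes) and 4 of 10 with apoE4 (3.18%). With apoE3, 5 of 10 oligodendrocyte lineage, 2 of 9 tested mural and fibroblast, 2 of 6 tested endothelial and 1 of 10 cycling markers were higher too, and with apoE4 1 marker of each of these lists. Of the neuronal markers, 1 of 10 was higher and 3 were lower with apoE3 (3.73% of all genes were lower), and 0 passed with apoE4. With apoE2 1 of 10 cycling markers was higher (1.17% of all genes) and no other marker passed. None of 10 microglial markers passed against control. Between isoforms with the block, Gad1 (neuron) was higher and Olig2 (oligodendrocyte lineage) and Top2a (cycling) lower with apoE4 than with apoE3, Slc1a2 (astrocyte), Col1a1 and Col1a2 (mural and fibroblast) and Cenpf (cycling) were higher with apoE4 than with apoE2, and 0 markers passed for apoE3 against apoE2 in edgeR. At an unadjusted p under 0.05 with the block, 7 of 10 astrocyte and 6 of 10 oligodendrocyte lineage markers were higher with apoE3 than with apoE2 (8.78% of all genes). For apoE4 against apoE3, 3 of 10 astrocyte markers were lower and 1 higher, and 2 of 10 oligodendrocyte lineage markers were lower (7.81% lower and 8.45% higher over all genes). The summed astrocyte markers were 1529 to 3469 CPM in control neurons, 1418 to 3592 with apoE2, 1856 to 7350 with apoE3 and 1696 to 6021 with apoE4. The paper also counted cells stained for the astrocyte protein GFAP in cultures of the age of harvest. It reports that they were a small share of all cells, with no significant difference between treatment conditions. That count was made on coverslip cultures, and the share of astrocytes in the sequenced wells is not given. The part of the markers in the differences of the synthesis genes was not tested.

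**Figure D3:**
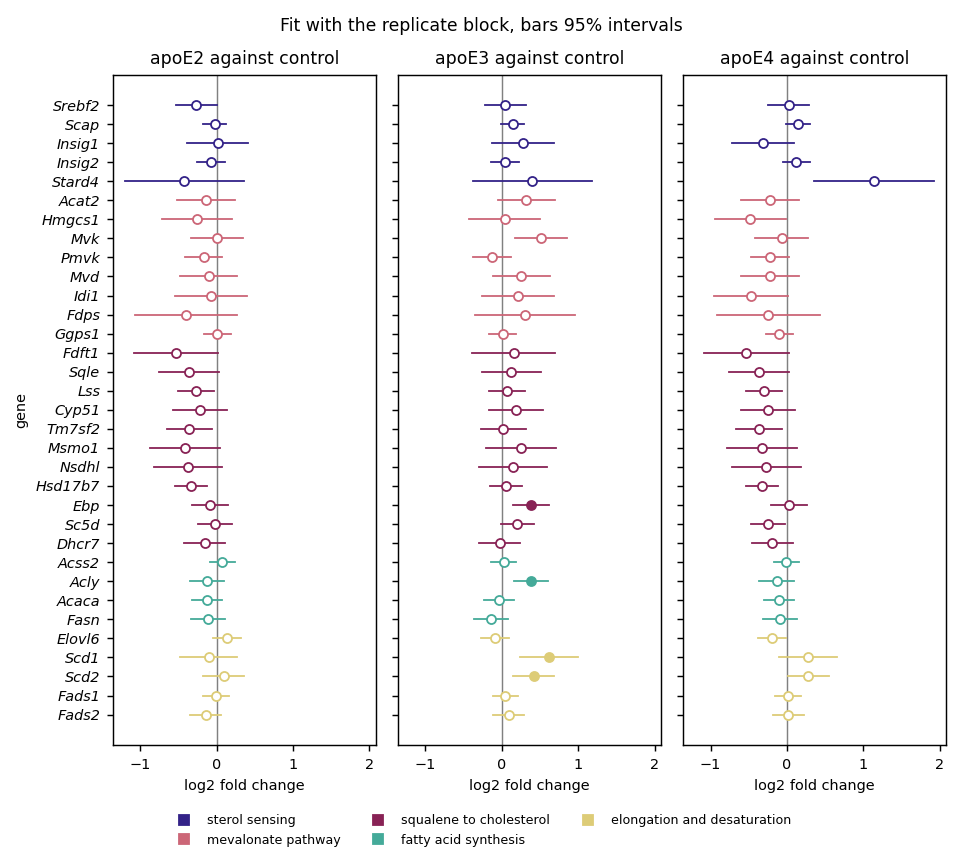
Each point is the log2 fold change of a gene against control from the edgeR fit with the replicate block, and each bar its 95% interval. Filled points passed an adjusted p of 0.05; they are Ebp, Acly, Scd1 and Scd2 with apoE3, and none with apoE2 or apoE4.

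Among the genes of sterol sensing, Srebf2 and Insig1 followed the replicate number while Insig2 did not. Srebf2 had 75.5, 157, 116 and 67.4 CPM in control libraries 1 to 4, 40.9, 128, 121 and 68.7 CPM with apoE2, 52.9, 166, 143 and 84.6 CPM with apoE3, and 67.0, 161, 133 and 70.2 CPM with apoE4. Its libraries numbered 2 and 3 were above those numbered 1 and 4 in all groups, and the groups overlapped. With the block its log2 fold change against control was -0.27 with apoE2 (95% interval -0.53 to 0.0043), 0.05 with apoE3 (-0.22 to 0.32) and 0.02 with apoE4 (-0.25 to 0.29). It was higher than with apoE2 by 0.31 with apoE3 and by 0.29 with apoE4, each in 4 of 4 pairs, and neither passed (edgeR adjusted p = 0.241 and 0.245).

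Insig1, which holds Scap in the endoplasmic reticulum and is itself a target of SREBP2, had 43.5, 136, 138 and 43.0 CPM in control libraries 1 to 4, 41.6, 159, 103 and 57.9 CPM with apoE2, 35.1, 153, 166 and 82.9 CPM with apoE3, and 30.6, 145, 65.6 and 50.2 CPM with apoE4. The apoE4 library was the lower of its pair with apoE3 in all 4 numbers. With the block that difference was -0.59 on the log2 scale (95% interval -0.999 to -0.18, edgeR adjusted p = 0.146). Insig2, its close relative, had 36.6, 41.1, 38.5 and 40.6 CPM in control libraries, 34.7, 36.1, 40.0 and 38.2 CPM with apoE2, 40.1, 45.4, 41.0 and 35.2 CPM with apoE3, and 42.6, 39.1, 45.5 and 43.9 CPM with apoE4. Its libraries lay between 34.7 and 45.5 CPM. With the block its log2 fold change with apoE4 was 0.12 against control (95% interval -0.06 to 0.30) and 0.20 against apoE2 (0.02 to 0.38), the latter higher in 4 of 4 pairs but not past the threshold (edgeR adjusted p = 0.226). Scap ran the other way by number, with means of 101 CPM in number 1 and 73.1 CPM in number 2.

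Stard4, a cytosolic carrier of sterols between membranes, differed from the enzymes with apoE4. It had 12.4, 73.1, 46.6 and 10.6 CPM in control libraries 1 to 4, 5.28, 58.2, 36.0 and 10.7 CPM with apoE2, 7.77, 86.2, 68.9 and 24.1 CPM with apoE3, and 45.5, 81.1, 49.5 and 45.8 CPM with apoE4. In the control, apoE2 and apoE3 groups the libraries numbered 1 and 4 were far below those numbered 2 and 3, whereas with apoE4 numbers 1, 3 and 4 were nearly level. With the block Stard4 was higher with apoE4 than with apoE2, by 1.56 ± 0.38 on the log2 scale (SE, edgeR adjusted p = 0.0274), and 4 of 4 pairs were higher. Against control the log2 fold change was 1.14 (95% interval 0.35 to 1.93, edgeR adjusted p = 0.123), and against apoE3 it was 0.74 (95% interval -0.05 to 1.53). Leaving out all libraries of a replicate number moved the difference from apoE2 between 1.07 without number 1 and 1.94 without number 2, and only without number 2 did it still pass.

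Stard4 was also set against the enzymes of its own library, many of which were themselves on average lower with apoE4 than in control, which raises the ratio there. As a share of the summed CPM of the 19 enzymes of the mevalonate pathway and of the steps from squalene to cholesterol, it was 1.40% to 2.30% in control libraries, 0.928% to 2.27% with apoE2, 1.43% to 2.89% with apoE3 and 2.83% to 9.47% with apoE4. The lowest apoE4 value, in number 2, lay just under the highest apoE3 value, and the highest, in number 1, came from a library where the enzymes were low. The group means were 1.87% ± 0.38 in control, 1.63% ± 0.63 with apoE2, 2.20% ± 0.72 with apoE3 and 5.33% ± 2.89 with apoE4 (SD, n = 4). This ratio was chosen after the levels were seen, and it is a description with no test.

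**Figure D4:**
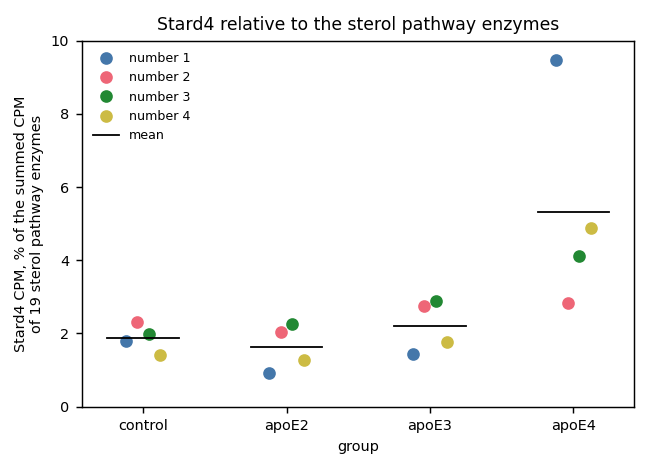
Each point is a library, coloured by replicate number, with the CPM of Stard4 as a percentage of the summed CPM of 19 sterol pathway enzymes on the vertical axis and the group on the horizontal axis; bars mark group means. The apoE4 libraries span 2.83% to 9.47% and the other 3 groups 0.928% to 2.89%.

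In the mevalonate pathway Hmgcs1, given above, and Pmvk, the phosphomevalonate kinase, were the most abundant per kilobase. With the block the log2 fold change of Hmgcs1 against control was -0.26 with apoE2 (95% interval -0.72 to 0.20), 0.04 with apoE3 (-0.42 to 0.50) and -0.48 with apoE4 (-0.94 to -0.02, edgeR adjusted p = 0.281). Of its exon words, 11.6% are shared with other genes. Pmvk had 37.7, 55.7, 67.9 and 50.1 CPM in control libraries 1 to 4, 40.7, 52.0, 44.6 and 47.1 CPM with apoE2, 28.9, 56.8, 63.4 and 46.6 CPM with apoE3, and 33.6, 54.0, 48.6 and 44.1 CPM with apoE4. It was lowest in number 1 in every group, with a range of 0.66 log2 units between numbers. Ggps1 had 36.8, 38.4, 41.0 and 37.4 CPM in control libraries, 41.0, 38.2, 37.3 and 38.4 CPM with apoE2, 39.2, 40.2, 38.6 and 37.1 CPM with apoE3, and 30.9, 38.8, 33.8 and 39.7 CPM with apoE4. It draws on the same farnesyl pyrophosphate but supplies prenylation, and neither number nor group set its libraries apart. Acat2, Mvk, Mvd, Idi1 and Fdps ranged over 1.96 to 3.47 log2 units between numbers, and with the block the log2 fold changes of the 8 genes of the pathway with apoE4 against apoE3 ran from -0.68 (Idi1) to -0.096 (Pmvk), of which 5 had an unadjusted p under 0.05 (7.81% of all genes were lower at that threshold).

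**Figure D5:**
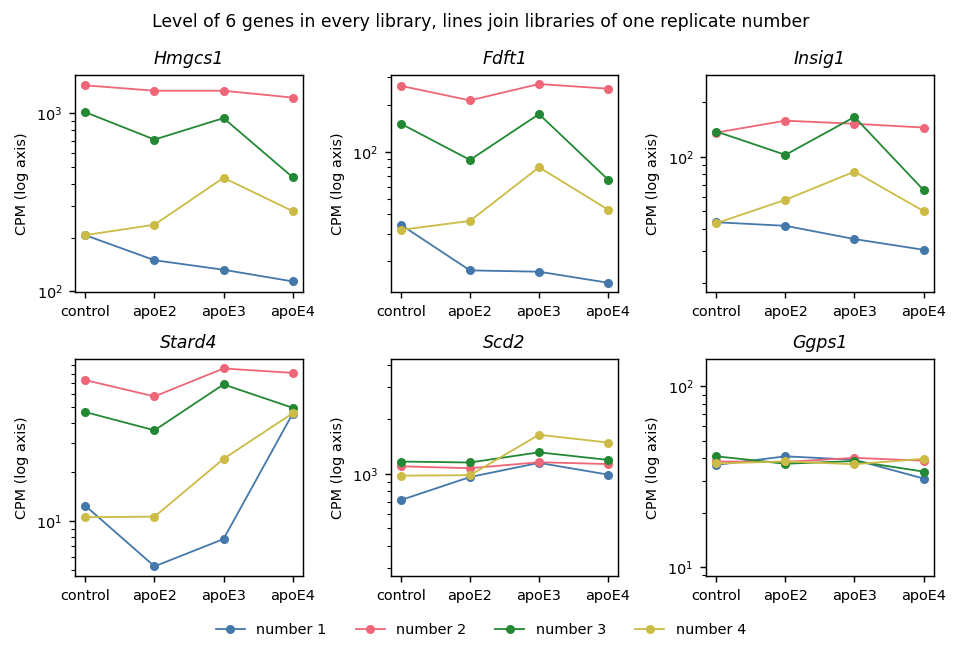
The level of 6 genes in CPM on a log axis is shown for every library, with a line joining libraries of a replicate number across the groups. For Hmgcs1, Fdft1 and Insig1 the lines of numbers 2 and 3 lie above those of numbers 1 and 4 in every group, as they do for Stard4, and Ggps1 lies between 30.9 and 41.0 CPM throughout.

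Of the steps from squalene to cholesterol, all but Ebp, which was highest in number 3 and lowest in number 4, had their highest mean in number 2 and their lowest in number 1. Fdft1, the squalene synthase that commits carbon to sterols, had 34.2, 264, 151 and 31.7 CPM in control libraries 1 to 4, 17.5, 213, 88.8 and 36.2 CPM with apoE2, 17.1, 271, 174 and 79.7 CPM with apoE3, and 14.6, 254, 66.5 and 42.7 CPM with apoE4. Its control libraries alone spanned 31.7 to 264 CPM. Sqle, the squalene epoxidase, had 70.7, 312, 224 and 81.9 CPM in control libraries, 50.7, 261, 141 and 86.3 CPM with apoE2, 47.8, 310.1, 244 and 156 CPM with apoE3, and 45.4, 279.7, 116 and 103 CPM with apoE4. With the block the difference of apoE4 from apoE3 was -0.69 for Fdft1 (95% interval -1.24 to -0.14, edgeR adjusted p = 0.201) and -0.49 for Sqle (-0.88 to -0.10, edgeR adjusted p = 0.201), and both were lower in 4 of 4 pairs.

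Late in the pathway, Sc5d and Ebp passed the test with the block. Sc5d, the sterol desaturase before the last step, had 32.2, 91.8, 73.7 and 36.3 CPM in control libraries 1 to 4, 34.8, 81.0, 59.6 and 45.4 CPM with apoE2, 37.0, 93.0, 84.0 and 48.8 CPM with apoE3, and 28.7, 81.2, 48.2 and 35.9 CPM with apoE4. It was lower with apoE4 than with apoE3 in 4 of 4 pairs, by -0.45 ± 0.10 on the log2 scale (SE, edgeR adjusted p = 0.0408 with the block). Without number 3 that difference was -0.33 (edgeR adjusted p = 0.329), and it passed only without number 4. Ebp, the sterol isomerase, had 19.4, 22.5, 33.2 and 20.5 CPM in control libraries, 18.4, 19.1, 28.3 and 22.8 CPM with apoE2, 27.6, 32.0, 42.2 and 22.4 CPM with apoE3, and 20.9, 26.5, 30.1 and 19.1 CPM with apoE4. It rose with apoE3 against control by 0.38 ± 0.11 (SE, edgeR adjusted p = 0.0387 with the block), 4 of 4 pairs being higher, and did not pass without the libraries numbered 1, 2 or 3.

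Hsd17b7, the sterol ketone reductase, had 18.3, 48.4, 47.0 and 22.2 CPM in control libraries, 15.6, 37.3, 32.3 and 20.2 CPM with apoE2, 17.4, 49.2, 46.8 and 27.4 CPM with apoE3, and 13.1, 40.9, 30.4 and 22.8 CPM with apoE4. With the block its log2 fold change against control was -0.33 with apoE2 (edgeR adjusted p = 0.105) and -0.32 with apoE4 (edgeR adjusted p = 0.0926). Also with the block, all 11 genes of this role had a fold change below 0 with apoE2 against control, 10 of 11 were below 0 with apoE4, and 10 of 11 were above 0 with apoE3. With the block 9 of the 11 were lower at an unadjusted p under 0.05 in apoE4 against apoE3 (7.81% of all genes), and 9 were lower in all 4 pairs (12%).

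In fatty acid synthesis the calls came from Acly, which makes cytosolic acetyl-CoA from citrate for both branches. It had 155, 429, 265 and 181 CPM in control libraries 1 to 4, 159.7, 358, 227 and 177 CPM with apoE2, 207, 486, 356 and 257 CPM with apoE3, and 149.9, 395, 178 and 204 CPM with apoE4. In every number the apoE3 library was the highest of the 4 groups, although the ranges of the groups overlapped. With the block Acly was higher with apoE3 than in control neurons by 0.38 ± 0.10 on the log2 scale (SE, edgeR adjusted p = 0.0293) and than with apoE2 by 0.50 ± 0.10 (edgeR adjusted p = 0.0310), and lower with apoE4 than with apoE3 by -0.52 ± 0.11 (edgeR adjusted p = 0.0198). Each direction held in 4 of 4 pairs. Leaving out a replicate number kept the difference from control between 0.33 and 0.43, but its edgeR adjusted p then ran from 0.0501 to 0.170.

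Fasn, the fatty acid synthase, gave no such difference. It had 297, 525, 429.9 and 299.8 CPM in control libraries 1 to 4, 234, 432, 404 and 351 CPM with apoE2, 238, 472, 449.5 and 270.1 CPM with apoE3, and 286, 496, 429 and 254 CPM with apoE4. Its log2 fold change with the block was -0.14 with apoE3 against control (95% interval -0.36 to 0.09). Acss2 and Acaca, the other members of this role, ranged over 0.31 and 0.65 log2 units between numbers.

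The desaturases Scd1 and Scd2 had their highest levels with apoE3. Scd1 had 32.2, 66.0, 75.7 and 26.6 CPM in control libraries 1 to 4, 30.4, 53.8, 66.6 and 32.6 CPM with apoE2, 44.2, 80.8, 98.1 and 73.8 CPM with apoE3, and 34.5, 64.2, 66.0 and 65.6 CPM with apoE4. With the block it rose with apoE3 against control by 0.61 ± 0.18 on the log2 scale (SE, edgeR adjusted p = 0.0379, higher in 4 of 4 pairs). Scd2 had 715, 1099, 1167 and 976 CPM in control libraries, 958, 1072, 1154 and 981 CPM with apoE2, 1148, 1157, 1313 and 1642 CPM with apoE3, and 989, 1131, 1192 and 1488 CPM with apoE4. With the block it rose with apoE3 against control by 0.42 ± 0.12 (SE, edgeR adjusted p = 0.0426), with all 4 pairs higher, and was higher with apoE4 by 0.28 without passing (95% interval 0.02 to 0.55, edgeR adjusted p = 0.269). Without the libraries numbered 4 the differences with apoE3 were 0.36 for Scd1, which passed in that setting but not without number 1, 2 or 3, and 0.29 for Scd2, which passed only without number 2. Up to 4.56% of the exon words of Scd1 and 3.97% of those of Scd2 are shared with other genes of the family.

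Elovl6, which elongates palmitate, had 108, 134, 173 and 112 CPM in control libraries 1 to 4, 121, 159, 157 and 135 CPM with apoE2, 98.1, 142, 148 and 107 CPM with apoE3, and 87.5, 148, 135 and 92.4 CPM with apoE4. It was lower with apoE4 than with apoE2 in 4 of 4 pairs, by -0.33 ± 0.086 on the log2 scale (SE, edgeR adjusted p = 0.0403 with the block), and passed without number 2 but not without number 1, 3 or 4. Fads2, the desaturase at the entry to long polyunsaturated fatty acids, had 159, 158, 189 and 194 CPM in control libraries, 154, 141, 149 and 195 CPM with apoE2, 169, 154, 191 and 240.5 CPM with apoE3, and 139.9, 152, 169.6 and 267 CPM with apoE4. Unlike the sterol genes, Fads1 and Fads2 were highest in number 4 and lowest in number 2.

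The other genes of these pathways were listed by function in 4 groups. Without the block none of them passed an adjusted p of 0.05 in edgeR, and 0 to 2 genes of a list had an unadjusted p under 0.05 in a comparison. With the block the shares of all genes that passed against control were 1.17% upward with apoE2, 7.95% upward and 3.73% downward with apoE3, and 3.18% upward and 0.129% downward with apoE4. Of 21 other sterol genes 1 was higher with apoE2, 5 were higher with apoE3, and 3 were higher and 1 lower with apoE4. Of 21 other fatty acid genes, 3 were higher and 1 lower with apoE3 and 1 was higher with apoE4, and of 8 genes controlled by or encoding LXR, the sterol receptor, 2 were higher and 1 lower with apoE3 and 1 was higher with apoE4. None of 11 genes of the isoprenoid branches passed in any comparison with the block, and 0 had an unadjusted p under 0.05 in edgeR.

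Among the regulators of sterol genes, Sp1, a partner of SREBP at promoters, was highest with apoE4. It had 27.5, 20.7, 21.3 and 24.6 CPM in control libraries 1 to 4, 29.6, 18.4, 24.4 and 25.9 CPM with apoE2, 34.4, 20.7, 26.3 and 40.1 CPM with apoE3, and 58.8, 25.8, 38.1 and 57.3 CPM with apoE4. With the block Sp1 rose with apoE4 against control by 0.87 ± 0.12 on the log2 scale (SE, edgeR adjusted p = 9.3e-04) and was higher than with apoE2 by 0.82 (edgeR adjusted p = 0.00138) and than with apoE3 by 0.54 (edgeR adjusted p = 0.0367). Nfyb, a subunit of NF-Y, had 31.0, 45.5, 42.5 and 40.6 CPM in control libraries, 48.6, 57.7, 65.1 and 67.5 CPM with apoE2, 70.2, 71.5, 88.9 and 53.6 CPM with apoE3, and 36.3, 48.9, 35.6 and 35.4 CPM with apoE4. With the block it rose with apoE3 by 0.84 ± 0.14 (SE, edgeR adjusted p = 0.00191) and with apoE2 by 0.59 (edgeR adjusted p = 0.0385) against control, and was lower with apoE4 than with apoE3 by -0.86 (edgeR adjusted p = 0.00408).

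Srebf1, which encodes the SREBP of fatty acid genes, rose with apoE3 by 0.76 ± 0.16 and with apoE4 by 0.67 ± 0.16 on the log2 scale against control (SE, edgeR adjusted p = 0.00873 and 0.0357 with the block). With apoE2 it was higher than control by 0.63 ± 0.16 without passing (SE, edgeR adjusted p = 0.0687 with the block). Its control libraries had 76.2, 31.1, 57.8 and 139.7 CPM, so it was lowest in number 2, where Srebf2 was highest. Abca1, which exports cholesterol to apoE particles, rose with apoE3 by 0.80 ± 0.17 and with apoE4 by 0.86 ± 0.17 (SE, edgeR adjusted p = 0.00867 and 0.0113 with the block). It had 148, 65.8, 122 and 234 CPM in control libraries, 365, 90.5, 246 and 222 CPM with apoE2, 439, 95.8, 196 and 330.4 CPM with apoE3, and 419, 102, 224 and 346 CPM with apoE4. Both genes were lowest in number 2 in every group. So were the summed astrocyte, oligodendrocyte lineage and mural and fibroblast markers, and their part in these levels was not tested.

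Among the other LXR and fatty acid genes, Lpcat3, a phospholipid remodelling enzyme, rose with apoE3 by 0.37 ± 0.10 (SE, edgeR adjusted p = 0.0281 with the block) and Abcg4, a sterol exporter, was lower by -0.35 ± 0.11 (edgeR adjusted p = 0.0483). Mid1ip1, which activates acetyl-CoA carboxylase, rose with apoE3 by 0.76 ± 0.12 and with apoE4 by 0.52 ± 0.12 (SE, edgeR adjusted p = 0.00186 and 0.0310 with the block). The elongase Elovl7 rose with apoE3 by 1.24 ± 0.24 (SE, edgeR adjusted p = 0.00521 with the block) from a mean of 6.02 ± 1.05 CPM in control neurons to 15.3 ± 6.88 CPM (SD, n = 4), and was lower with apoE4 than with apoE3 by -1.002 ± 0.24 (edgeR adjusted p = 0.0475). Elovl1 rose with apoE3 by 1.17 ± 0.21 (SE, edgeR adjusted p = 0.00302 with the block) from levels of 1.09 to 6.91 CPM in control neurons.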

How the data were processed

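RNA of primary hippocampal neurons was depleted of ribosomal RNA, sequenced, aligned to mm10 with STAR and counted per gene with HTSeq by the authors. The annotation and the strand setting are not given in the sources used here. The deposited files hold whole-number counts per gene symbol, and the rows that name no gene (38.4% to 73.7% of a library) were left out. The 33 members and all gene lists were chosen with earlier results of these data known. Counts were tested with edgeR 4.0.16 in R 4.3.3 (TMM scaling, minimum count 10, minimum total 15, proportion 0.7; 17038 genes), with a coefficient per group over all 16 libraries and Benjamini-Hochberg adjustment over all genes. The study's methods name no block, so the fit without it comes first. Same-numbered libraries deviated together from their group means (r between 0.362 and 0.552 in number 1, between 0.766 and 0.831 in number 2, between 0.620 and 0.671 in number 3, and between 0.681 and 0.790 in number 4), so the replicate block is given beside it; no label says what a number marks, and p-values measure only the spread between these libraries. Alternatives were DESeq2 1.42.0, its size factors, other filters, fits of 2 groups and libraries left out. On simulated counts for apoE4 against control (16841 genes, 200 changed 2-fold), 48.5% of changed genes were recovered without the block with 0 false calls and 85% with it with 9. The simulated means held a replicate-number effect that was equal in all groups, and changed genes were drawn above a set mean level. The gain with the block was therefore built in and does not measure its gain on the real counts. Genes were named by rule: members past an adjusted p of 0.05 in either fit (at most 12), the 2 with the smallest p in each comparison, the 2 with the highest level per kilobase of each role, and at most 3 called genes of each other list. RefSeq windows and shared 50-base words came from the reference tables and GENCODE transcripts.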

Additional observations from a re-analysis of the deposited data

Results flagged for a closer look

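Libraries standing apart were sought in 72 groups of 4 with Dixon's ratio, where chance gives about 1 in 20, and 2 were found. Stard4 in apoE4 library 2 (81.1 CPM) stood above the other 3 apoE4 libraries, and Scd1 in apoE4 library 1 (34.5 CPM) stood below them. The ratio takes no account of the replicate number. For Stard4 the library numbered 2 was the highest in the other groups too (73.1 CPM in control, 58.2 with apoE2, 86.2 with apoE3). For Scd1 the library numbered 1 was also the lowest with apoE2 and apoE3, but not in control.

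Isoforms differed from each other in a tested contrast with the replicate block for 4 members. For apoE4 against apoE3 the log2 differences were -0.52 for Acly and -0.45 for Sc5d, and for apoE4 against apoE2 they were 1.56 for Stard4 and -0.33 for Elovl6. For apoE3 against apoE2 the difference was 0.50 for Acly. None passed without the block.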

How the results depend on the processing

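With the replicate block, calls among the members went from 0 to 4 for apoE3 against control, 2 for apoE4 against apoE3, 2 for apoE4 against apoE2 and 1 for apoE3 against apoE2, and from 0 to 8 other sterol genes, 4 other fatty acid genes and 3 LXR genes; apoE2 and apoE4 against control kept 0 members and the isoprenoid branches 0 genes, and calls among the marker lists changed as the report gives them. DESeq2 with the block called 1 (apoE2), 5 (apoE3) and 1 (apoE4) against control, 4 (apoE4 against apoE3), 2 (apoE4 against apoE2) and 4 (apoE3 against apoE2), with 10 other sterol, 7 other fatty acid and 3 LXR genes. DESeq2 without it called 1 other sterol gene, and a 2-fold change with unadjusted p under 0.05 gave 1 other fatty acid gene. Without all libraries of a number the blocked fit called 0 to 1 members (apoE2), 0 to 2 (apoE3) and 0 to 2 (apoE4) against control, 0 to 5 for apoE4 against apoE3, 0 to 2 for apoE4 against apoE2 and 0 to 2 for apoE3 against apoE2, 2 to 7 other sterol genes, 2 to 5 other fatty acid genes and 0 to 2 LXR genes. Of the 9 calls with the block, 0 held in all 4 of these settings and 2 held in none of them. With 1 library left out and no block, the median log2 fold change of the members ran from -0.47 (without apoE2 replicate 2) to 0.10 (without control replicate 2) for apoE2, from -0.15 (without apoE3 replicate 2) to 0.46 (without control replicate 2) for apoE3 and from -0.54 to 0.10 for apoE4 against control, from -0.69 to -0.064 for apoE4 against apoE3, from -0.38 to 0.25 for apoE4 against apoE2 and from 0.047 to 0.67 for apoE3 against apoE2; each lowest value came without replicate 2 of the first group and each highest without replicate 2 of the second. Other sterol genes then numbered 0 to 1 (1 without apoE4 replicate 2), and members passing the test of the number 30 to 31. With the block and a number left out, the median stayed above 0 for apoE3 against apoE2 (0.26 to 0.42) and below 0 for apoE4 against apoE3 (-0.41 to -0.23); it was -0.22 to -0.08 (apoE2), 0.0021 to 0.26 (apoE3) and -0.30 to -0.04 (apoE4) against control, and -0.059 to 0.038 for apoE4 against apoE2. On simulated counts only 2-fold changes were tried, so detection of smaller differences was not tested.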
